A study of Mus musculus with 8 samples.

Results

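The interleukin 6 (IL6) family genes were described in SV-LECs, a mouse lymphatic endothelial cell line, of which 4 samples were left untreated and 4 were treated with 10 ng/ml TGFβ1 for 72 h before RNA sequencing. The line was isolated from mesenteric adventitial tissue and immortalized with SV40, and all 8 samples share this background. The study's methods call the 4 samples of a group technical replicates, so errors and p-values here cover the spread between such samples of a single line. The question was which secreted factors lymphatic endothelial cells make when they meet TGFβ1. The members were the 10 rows, of 55471 genes in the count table, whose symbol was Il6, Il11, Lif, Clcf1, Il6ra, Il11ra1, Il6st, Lifr, Osmr or Socs3, and each symbol occurred in 1 row. All 10 passed the filter on low counts.

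Cytokines of this family signal through gp130, a receptor chain encoded by Il6st. IL6 and IL11 first bind their own receptor, encoded by Il6ra and Il11ra1, and the pair then joins gp130. LIF binds gp130 together with the LIF receptor (Lifr), oncostatin M binds gp130 together with its own receptor chain (Osmr), and CLCF1 uses the CNTF receptor with LIFR and gp130. The receptors activate JAK kinases and STAT3, and STAT3 switches on Socs3, whose product blocks gp130 signalling. Endothelial cells often carry little IL6 receptor and can then respond to IL6 bound to a shed, soluble receptor.

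Total counts ranged from 19182616 to 26077972 in the untreated libraries and from 18952504 to 26386941 in the treated libraries. Levels are given as CPM (a gene's count relative to the library total, scaled with the TMM method), where 3 counts correspond to 0.113 to 0.162 CPM. Of the lymphatic endothelial markers, Flt4, Pdpn, Nrp2 and Kdr were among the 5 of 12 tested, but Prox1, Lyve1 and Cdh5 had at most 3 counts in any library, Pecam1 at most 5, and Ccl21a and Tie1 were at 0 in all 8. Of 8 leukocyte markers 2 were tested, Cd68 and Csf1r, and both rose. At the threshold given below, 37.6% of all genes tested rose. The summed level of all 8 moved from between 6.17 and 8.30 CPM to between 16.6 and 19.1 CPM, while Adgre1 was at 0 and Ptprc had at most 1 count. Cd68 made up most of this sum, with group means of 6.96 CPM before and 15.9 CPM after TGFβ1. Mean Csf1r moved from 0.28 to 1.38 CPM. Of 5 fibroblast markers 3 were tested, of which Col1a1 rose and Pdgfra and Dcn fell, and the summed level of all 5 moved from between 3161 and 4497 CPM to between 5465 and 6594 CPM. Col1a1 made up most of this sum, with group means of 3459 CPM before and 6057 CPM after TGFβ1. Mean Pdgfra moved from 160.0 to 57.8 CPM and mean Dcn from 311.7 to 83.0 CPM. Of 5 epithelial markers 3 were tested and Krt8 and Krt18 rose, each with at most 47 counts in a library. The third, Krt14, had 669 to 1057 counts in a library and overlapping groups. Its group means were 37.1 CPM before and 38.8 CPM after TGFβ1. Krt14 made up most of the summed level of all 5, which was 34.2 to 40.7 CPM in untreated and 38.0 to 45.1 CPM in treated libraries. The part of these other-cell-type markers in the results was not tested. In RNA from whole cultures, fewer cells making a transcript and less transcript per cell cannot be told apart.

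After TGFβ1, 6 of the 10 members were significantly higher, 2 were significantly lower and 2 were not significantly changed, at a Benjamini-Hochberg FDR under 0.05 over 13818 genes from edgeR's likelihood ratio test, with fold changes given as log2FC (treated over untreated). Among all genes tested this threshold was passed by 75.6%, 37.6% upward and 38.0% downward, so 8 of 10 lies near the background. The same 6 members were higher, and the same 2 lower, with every treated library on one side of every untreated library, a separation found in 69.8% of all genes tested, 34.7% upward and 35.1% downward. A stricter test, edgeR's glmTreat, asked whether a change exceeded 0.5 on the log2 scale at the same FDR, which 30.0% of all genes passed, 16.9% upward and 13.1% downward. By that test Il6, Lif, Il6ra and Il11 rose and Il6st fell. The median log2FC of the 10 members was 0.44, against -0.0064 over all genes tested, and the median size of the change regardless of direction was 0.67 against 0.39.

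**Figure D1:**
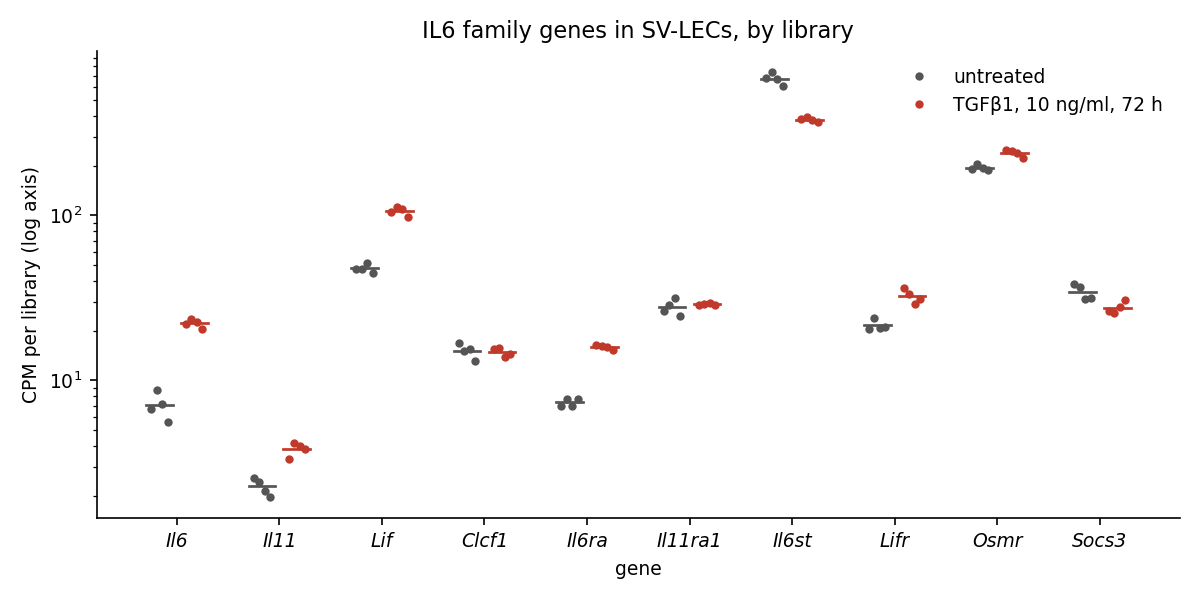
CPM on a log axis for each of the 10 genes, with 1 point per library (grey, untreated; red, TGFβ1) and a line at each group mean of n = 4. The groups are apart for 8 genes and overlap for Clcf1 and Il11ra1, and Il6st has the highest CPM in both groups.

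Il6, which encodes the founding cytokine of the family and lies on chromosome 5 of GRCm38 from 30013114 to 30019981, had the largest log2FC of the 10 members. Its level was 6.75, 8.71, 7.16 and 5.63 CPM in the untreated libraries and 22.1, 23.7, 22.7 and 20.4 CPM in the treated libraries. The lowest treated library was thus well above the highest untreated library, and the spread was wider in the untreated group, with a coefficient of variation of 18.1% against 6.22%. The rise was 3.12-fold (log2FC 1.64, SE 0.109, edgeR FDR = 3.62e-51), and the size of this change exceeded that of 92.2% of all genes tested.

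Lif (chromosome 11, 4257557 to 4272514), a cytokine best known for holding embryonic stem cells in their undifferentiated state, was the highest of the 4 ligands per length in both groups. It had 47.4, 47.2, 51.1 and 45.0 CPM in untreated and 105.0, 112.0, 109.3 and 97.2 CPM in treated libraries. The groups were far apart, and the rise was 2.22-fold (log2FC 1.15, SE 0.0581, edgeR FDR = 6.16e-85). Il11 (chromosome 7, 4772373 to 4782859), whose product is a fibroblast-activating cytokine known as a TGFβ response gene in other cells, was the lowest of them per length, with 39 to 65 counts in untreated and 62 to 99 counts in treated libraries. These correspond to 2.55, 2.44, 2.14 and 1.98 CPM before and 3.35, 4.19, 3.99 and 3.84 CPM after TGFβ1. The groups did not overlap and the log2FC was 0.75 (SE 0.143, edgeR FDR = 2.15e-07). Il11 passed the test against 0.5 narrowly (glmTreat FDR = 0.0351). The call was lost with libraries scaled by total counts (FDR = 0.0942), without the filter on low counts (FDR = 0.0925) and at a threshold of 0.01. It was also lost when untreated replicate 3 or 4, or TGFβ1 replicate 2, 3 or 4, was left out (glmTreat FDR from 0.0543 to 0.0961).

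Clcf1 (chromosome 19, 4214238 to 4223490), which encodes a neurotrophic and B cell stimulating cytokine, had 16.8, 15.1, 15.5 and 13.03 CPM in untreated and 15.5, 15.7, 13.8 and 14.6 CPM in treated libraries. The groups overlapped and the log2FC was -0.025, with a 95% interval from -0.20 to 0.15 (edgeR FDR = 0.809), and the sign depended on which library was left out. Of its read-length stretches of 75 bases, 6.05% also occur in an overlapping gene model on the same strand, which had 0 counts. Cntfr, the receptor chain that CLCF1 shares with CNTF, had 11 to 23 counts in untreated and 28 to 54 in treated libraries (log2FC 1.199, edgeR FDR = 1.08e-07).

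Sequences before a start of Il6, Lif, Il11 and Socs3 are shown because the first 3 hold an AP-1 motif there and Socs3 holds a STAT motif. RefSeq promoters (GRCm38.p6, 250 bases before to 50 after the start) were used for the 9 members other than Clcf1, whose promoter was not analysed here, 12 promoters in all, and were searched on both strands for the AP-1 motif TGANTCA, the STAT motif TTCNNNGAA, an NF-kB motif of 10 bases (GGG, any pair of bases, TTTCC), the SMAD motif CAGACA and the cAMP response motif TGACGTCA with its short form TGACG, which the full motif contains. Below, capitals mark matches to these motifs other than the short form, and each sequence is written 5′ to 3′ on the gene's strand and ends where it would enter a GENCODE M21 exon of the gene. The stretches of Il11 and Socs3 precede internal starts and lie within the annotated gene, in introns of longer transcripts. Counted from the RefSeq start, the AP-1 motif began at -249 in Il6, at -228 in Lif and at -98 in Il11, in the first of its 2 promoters and not in the other. It was found in 7.81% of all 32851 promoters. Il6 also held an NF-kB match at -44, a motif in 1.63% of promoters. Socs3 held a STAT match at -154, a motif in 8.3% of promoters. A match describes letters and not binding.
Il6 (chr5:30012864-30013113, plus strand): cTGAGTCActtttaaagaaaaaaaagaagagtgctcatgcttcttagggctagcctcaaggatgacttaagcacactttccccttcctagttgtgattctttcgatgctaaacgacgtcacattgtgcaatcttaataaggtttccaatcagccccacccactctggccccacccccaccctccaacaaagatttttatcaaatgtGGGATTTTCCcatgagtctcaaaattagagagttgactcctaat
Lif (chr11:4257318-4257556, plus strand): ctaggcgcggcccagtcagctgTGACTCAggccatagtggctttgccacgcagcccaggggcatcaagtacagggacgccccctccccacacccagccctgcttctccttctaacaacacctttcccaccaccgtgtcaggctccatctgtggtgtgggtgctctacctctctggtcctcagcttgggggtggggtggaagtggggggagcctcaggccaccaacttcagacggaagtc
Il11 (chr7:4778142-4778391, minus strand): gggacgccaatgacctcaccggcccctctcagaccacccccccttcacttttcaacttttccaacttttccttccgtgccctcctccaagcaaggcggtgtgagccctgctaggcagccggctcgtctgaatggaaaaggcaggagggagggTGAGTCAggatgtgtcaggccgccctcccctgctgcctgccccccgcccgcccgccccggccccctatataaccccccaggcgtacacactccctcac
Socs3 (chr11:117969452-117969616, minus strand): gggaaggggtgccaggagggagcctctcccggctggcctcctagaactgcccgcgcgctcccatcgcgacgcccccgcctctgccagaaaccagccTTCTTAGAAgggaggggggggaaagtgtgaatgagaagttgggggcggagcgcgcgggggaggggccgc

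No motif of the list matched in the promoter of Il6st, and in that of Il6ra the short cAMP response form was the one match, at -236. This short form, in 20.8% of promoters, also lay at -135 in Il6, and the full form, in 1.79% of promoters, was in 0 of the 12. In all, 4 of the 12 member promoters held the AP-1 motif, that of Osmr with its match 3 bases past the start. The SMAD motif, in 21% of promoters, matched past the start of Il6 and at -219 in the second promoter of Lifr.

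The make-up of the ligand RNA was compared per length, as CPM per kilobase of exon in GENCODE M21. The summed level of the 4 ligands was 18.9 ± 1.28 CPM per kb in untreated and 39.3 ± 2.19 CPM per kb in treated libraries (SD, n = 4). Lif held the largest share in every library, between 55.4% and 60.7% before and between 61.3% and 62.8% after TGFβ1. The share of Il6 moved from between 13.6% and 18.3% to between 23.1% and 23.5%, and that of Clcf1 from between 20.1% and 22.9% to between 9.04% and 10.5%. The share of Il11 stayed under 7% in all libraries, with 5.19% to 6.35% before and 4.14% to 5.07% after. Shares within a library are tied to each other, so a share can move without a change in its own gene.

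**Figure D2:**
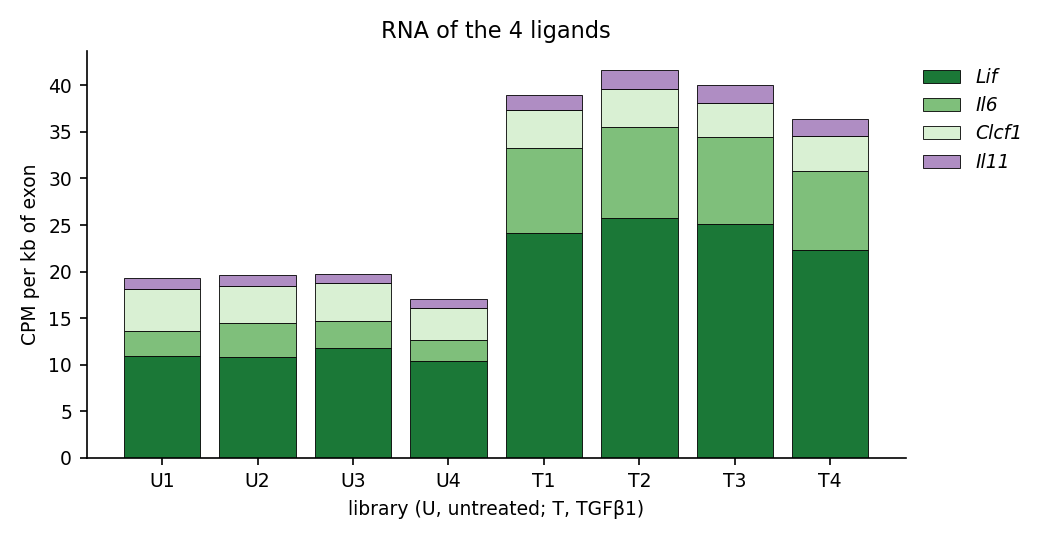
Stacked bars give the CPM per kb of exon of Lif, Il6, Clcf1 and Il11 in each of the 8 libraries (U, untreated; T, TGFβ1). The summed level is 17.04 to 19.8 in untreated and 36.4 to 41.6 in treated libraries, with Lif as the largest layer in each.

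Ctf1, which encodes cardiotrophin 1, had 3.85, 5.37, 4.02 and 4.06 CPM in untreated and 5.95, 6.09, 5.46 and 7.37 CPM in treated libraries, without overlap (log2FC 0.52, edgeR FDR = 0.000377). Cntf had 4 to 18 counts in a library and was not tested. Osm, Il27, Ebi3 and Il31 had at most 2 counts in any library.

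Among the receptors that give a cytokine its target cells, Il6ra and Il11ra1 parted. Il6ra (chromosome 3, 89864059 to 89913196) had 7.03, 7.74, 7.03 and 7.76 CPM in untreated and 16.5, 16.1, 16.0 and 15.3 CPM in treated libraries. No libraries overlapped and the rise was 2.15-fold (log2FC 1.11, SE 0.0845, edgeR FDR = 1.97e-39). Of the read-length stretches of Il6ra, 1.97% lie on the opposite strand of Gm42809, which had 10 counts over all libraries. Il11ra1 (chromosome 4, 41699989 to 41769474) had 26.5, 28.5, 31.5 and 24.5 CPM in untreated and 28.6, 28.9, 29.5 and 28.7 CPM in treated libraries. The treated values lay within the untreated range, and the log2FC was 0.055, with a 95% interval from -0.087 to 0.20 (edgeR FDR = 0.493), and below 0 with total-count scaling. Of its stretches, 35.9% are shared with Gm13305 and 12.9% with Il11ra2, near copies of Il11ra1 that both had 0 counts in every library, so that reads from the shared parts may be missing from its count or may come from a copy.

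The signalling chains moved in different directions. Il6st (chromosome 13, 112464070 to 112510086), which encodes gp130, had 676.4, 739.9, 666.5 and 611.1 CPM in untreated and 382.0, 392.8, 378.8 and 370.4 CPM in treated libraries. Every treated library was far below every untreated library, a 1.77-fold fall (log2FC -0.82, SE 0.0537, edgeR FDR = 2.68e-51). It was the one member that fell past the test against 0.5 (glmTreat FDR = 7.84e-10). Lifr (chromosome 15, 7090614 to 7197489) had 20.4, 23.9, 20.8 and 21.2 CPM in untreated and 36.1, 33.3, 29.0 and 31.3 CPM in treated libraries. The groups did not overlap, and the log2FC of 0.58 (SE 0.0775, edgeR FDR = 1.58e-13) did not pass the test against 0.5 (glmTreat FDR = 0.144). It did pass that test without untreated replicate 2 (FDR = 0.0429) and without TGFβ1 replicate 3 (FDR = 0.0447). Osmr (chromosome 15, 6813577 to 6874969) had 190.5, 204.7, 192.5 and 189.4 CPM in untreated and 249.0, 244.6, 238.9 and 224.0 CPM in treated libraries. Its rise was small but larger than the spread, with a log2FC of 0.30 (SE 0.0459, edgeR FDR = 2.21e-10).

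**Figure D3:**
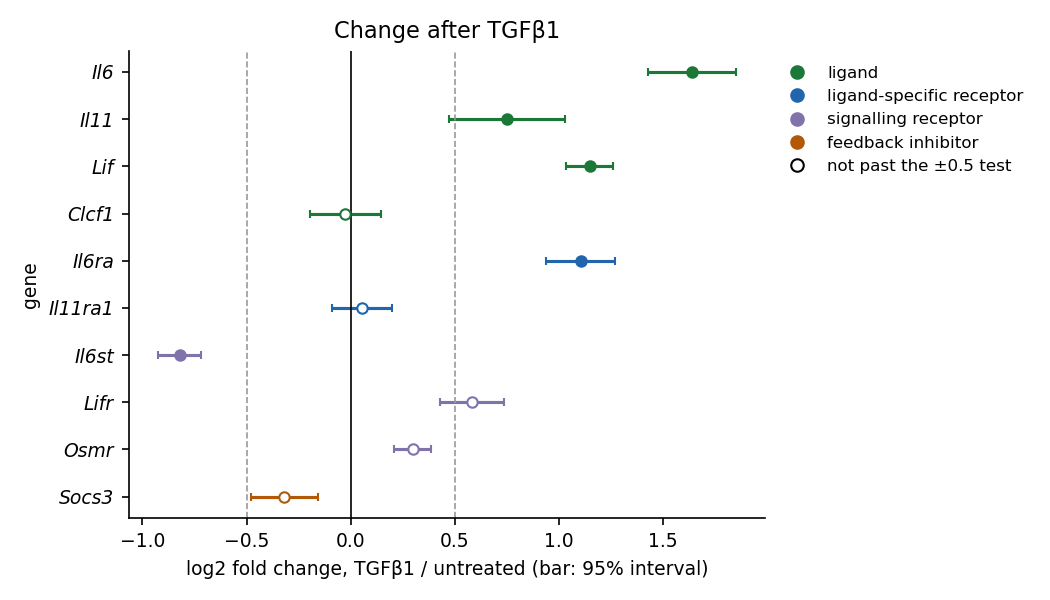
Log2FC of each member with its 95% interval, from edgeR's fit (n = 4 libraries per group), with dashed lines at ±0.5 and open points for genes that did not pass the test against 0.5. The points of Il6, Il11, Lif, Il6ra and Lifr lie above the upper line, with the intervals of Il11 and Lifr crossing it, and Il6st lies past the lower line.

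Of 4 further receptor genes, Cntfr rose and Il31ra, the IL31 receptor, fell from 12 to 21 counts in untreated to 0 to 6 counts in treated libraries. Over the groups these are 70 against 13 counts, 5.09-fold lower after scaling to library size (95% exact interval 2.79 to 10.0, counting error only). Il27ra had overlapping groups (log2FC -0.28, edgeR FDR = 0.104). Il11ra2 had 0 counts.

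Per length, Il6st was the highest of the 10 members in both groups, with 60.7 ± 4.76 CPM per kb in untreated and 34.3 ± 0.834 in treated libraries (SD, n = 4). In untreated libraries Osmr, Socs3, Lif, Il11ra1, Clcf1, Il6, Lifr, Il11 and Il6ra followed in that order, and the libraries overlapped between Socs3 and Lif and between Clcf1 and Il6. In treated libraries the order was Lif, Osmr, Socs3, Il6, Il11ra1, Clcf1, Lifr, Il6ra and Il11, with overlaps between Socs3 and Il6 and between Il6ra and Il11. Il6ra, the lowest in untreated libraries at 0.855 ± 0.0478 CPM per kb, reached 1.85 ± 0.0577, and Il6 passed from 2.91 ± 0.526 to 9.16 ± 0.570 (SD, n = 4).

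**Figure D4:**
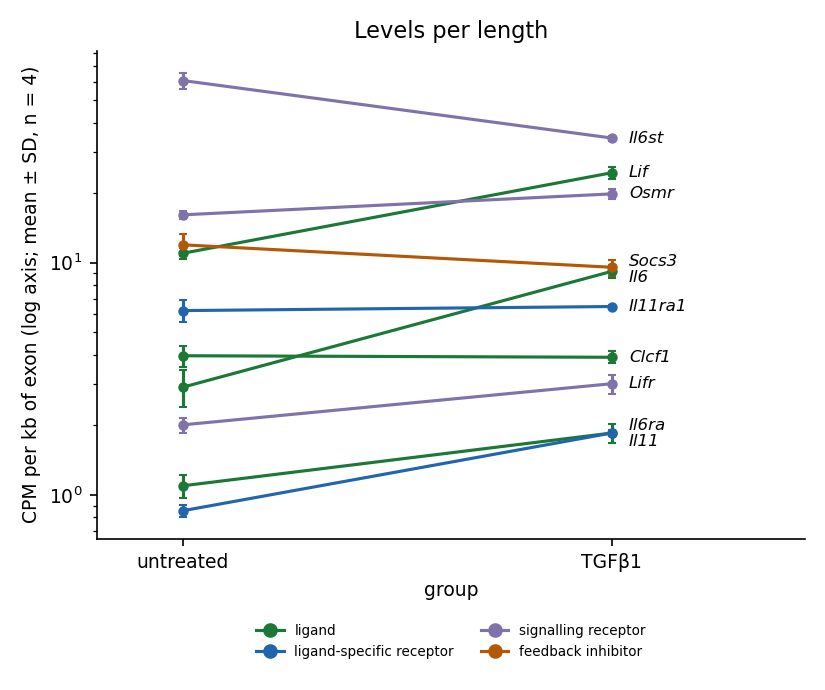
Mean CPM per kb of exon on a log axis, with SD over n = 4 libraries, for each member in untreated and TGFβ1-treated SV-LECs, coloured by role. Il6 rises from 2.91 to 9.16 and crosses Il11ra1 and Clcf1, while Il6st falls from 60.7 to 34.3 and remains the highest.

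Ratios between members within a library do not depend on how libraries are scaled, and 6 were compared on a log2 scale of counts with 0.5 added. In each of the 6 the groups did not overlap (exact two-sided permutation test, p = 0.0286 for each and 0.0286 after Benjamini-Hochberg adjustment over the 6, the smallest p that 4 libraries against 4 allow). The ratio of Il6ra to Il6st moved most, by 1.93 on the log2 scale, from between 0.0104 and 0.0127 counts of Il6ra per count of Il6st to between 0.0409 and 0.0432. Because Il6ra rose and Il6st fell without overlap in these libraries, the separation of this ratio was fixed in advance and restates those changes. Each of the other ratios also held a member whose own groups did not overlap, as was found in 69.8% of all genes tested. How often ratios of other gene pairs separate was not tested. The ratio of Il6ra to Il11ra1 rose by 1.05, from -1.90 ± 0.206 to -0.86 ± 0.0507 (SD, n = 4). Il6 rose relative to Il11 by 0.92 and relative to Lif by 0.52. Socs3 rose relative to Il6st by 0.50, since Il6st fell more than Socs3, and Osmr relative to Lifr decreased by 0.29.

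Socs3 (chromosome 11, 117966079 to 117970047), the feedback inhibitor, had 38.5, 36.7, 31.1 and 31.5 CPM in untreated and 26.5, 25.5, 27.8 and 30.5 CPM in treated libraries. The groups did not overlap, but the highest treated and the lowest untreated library nearly met. The log2FC was -0.32 (SE 0.0823, edgeR FDR = 0.000181, and 0.00172 by its quasi-likelihood test), and the fall did not pass the test against 0.5. Some other response genes, chosen after their values were seen, varied between the same libraries. Cebpd, an acute phase transcription factor, had 129.6, 97.9, 64.7 and 54.5 CPM in untreated and 43.8, 34.2, 65.7 and 84.0 CPM in treated libraries. Cebpb, a related factor, had 83.5, 66.7, 45.1 and 43.7 CPM in untreated and 25.8, 24.1, 42.3 and 47.9 CPM in treated libraries. Untreated replicates 1 and 2 and TGFβ1 replicates 3 and 4 were thus the higher libraries of their groups for Cebpd and Cebpb, and the same libraries were the higher in Socs3. The part of this difference between libraries in the fall of Socs3 was not tested.

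Among the other inhibitors of JAK and STAT signalling, 4 of 12 rose and 4 fell, with a median log2FC of 0.014. Over all genes tested, 75.6% passed the same FDR threshold, 37.6% upward and 38.0% downward. Cish, a SOCS family member best known as a STAT5 target, rose from 10.97 to 13.3 CPM in untreated to 35.0 to 40.7 CPM in treated libraries (log2FC 1.60, edgeR FDR = 5.71e-92). Pias3, which encodes an inhibitor of STAT3, rose by 0.79 on the log2 scale. Socs2 fell by 1.03 and Ptpn2, a phosphatase acting on JAK kinases, fell by 0.48. The count of higher genes was 2 with total-count scaling.

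Of 9 genes for kinases, STATs and adaptors, 3 were significantly higher and 3 significantly lower (median log2FC -0.079), against 37.6% and 38.0% of all genes tested. None passed the test against 0.5 in either direction, which 30.0% of all genes passed. Stat3 had 226.0 to 251.5 CPM in untreated and 221.4 to 232.5 CPM in treated libraries, which overlapped (log2FC -0.079, edgeR FDR = 0.0809). Jak1 overlapped likewise (log2FC 0.022, edgeR FDR = 0.641). Tyk2 rose by 0.28 on the log2 scale, Jak2 fell by 0.23 and Stat5b fell by 0.57. With total-count scaling 5 of the 9 were lower.

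Of 19 genes known to respond to STAT3 in other cells, 18 were tested, of which 7 were significantly higher and 10 significantly lower, with a median log2FC of -0.25. By the test against 0.5, 3 were higher and 6 lower. Across all 13818 genes, an FDR under 0.05 was reached upward by 37.6% and downward by 38.0%. For the test against 0.5 these shares were 16.9% and 13.1%. With edgeR's quasi-likelihood test, 9 genes of this list were lower in place of 10. Hp, which encodes haptoglobin, had 190 to 282 counts in untreated and 7 to 14 counts in treated libraries (log2FC -4.39, SE 0.255, edgeR FDR = 4.15e-109). Saa3, a serum amyloid A gene, had 630.0, 645.1, 647.4 and 761.3 CPM in untreated and 122.5, 95.4, 108.2 and 99.3 CPM in treated libraries (log2FC -2.66, SE 0.0769, edgeR FDR = 4.29e-233). Both were at levels in treated libraries far below those of any untreated library. Serpina3n, Bcl3 and Pim1, singled out after their values were seen, fell by 1.78, 1.12 and 1.14 on the log2 scale. Ccnd1, which encodes cyclin D1, rose by 1.17, and Junb rose by 0.84 with overlapping groups. Fos and Bcl2l1, also singled out after their values were seen, each rose by 0.69 without overlap. Both passed the test against 0.5 upward, as did Ccnd1, and Junb did not. Lrg1 had 0 counts in every library.

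**Figure D5:**
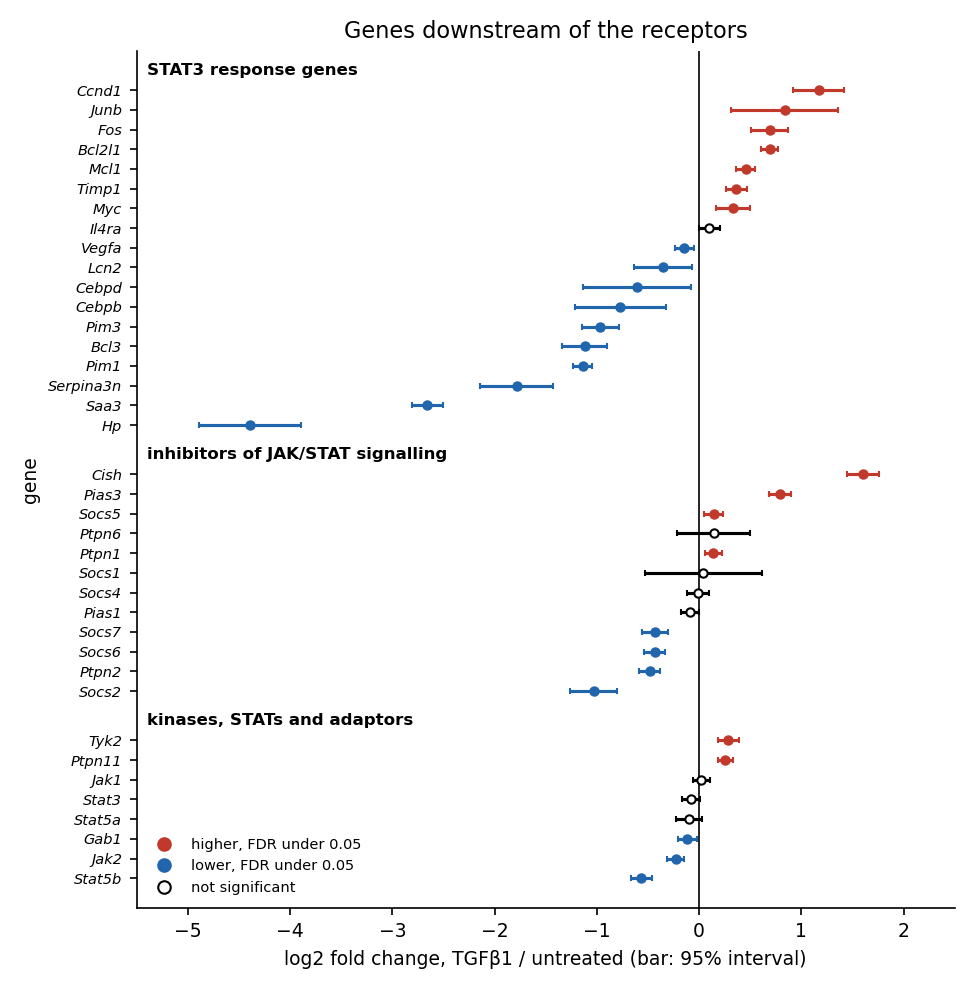
Log2FC with its 95% interval from edgeR's fit for the tested STAT3 response genes, JAK/STAT inhibitors, and 8 of the 9 kinases, STATs and adaptors (red, higher; blue, lower at an FDR under 0.05; open, not significant). Hp and Saa3, at -4.39 and -2.66, lie furthest to the left, and Stat3 and Jak1 lie near 0.

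Genes that act on IL6 RNA or on the IL6 receptor protein were examined in the same way. The counts below stand beside 37.6% of all genes tested that were significantly higher and 38.0% that were significantly lower. Of 8 regulators of cytokine mRNA stability, 6 were significantly higher and 1 lower, with a median log2FC of 0.39. Zc3h12a, which encodes Regnase-1, a nuclease that cuts Il6 mRNA, had 32.1, 35.3, 34.7 and 32.3 CPM in untreated and 73.3, 72.7, 73.9 and 73.4 CPM in treated libraries (log2FC 1.12, edgeR FDR = 3.40e-108). Zc3h12a and Il6 were both higher after TGFβ1, as were 37.6% of all genes tested, and a link between them was not tested. Rc3h1, which encodes Roquin-1, rose by 0.83, and Elavl1, an RNA stabilizer and the 1 lower gene, fell by 0.11. Arid5a, singled out after its values were seen, rose by 0.39 without overlap (edgeR FDR = 5.78e-08). The list mixes genes that degrade RNA with genes that stabilize it, so its counts do not describe a single kind of action. Of 4 genes for shedding of membrane proteins, Rhbdf2 rose by 0.58, Adam17, a sheddase of the IL6 receptor, fell by 0.21, Adam10 fell by 0.12, and Rhbdf1 had overlapping groups (log2FC -0.00080, edgeR FDR = 0.993). Of 8 NF-kB genes, 3 were significantly higher and 3 lower, with a median log2FC of 0.048. Tnfaip3, which encodes A20, an inhibitor of NF-kB, rose by 1.48 and Rel by 0.45, while Relb fell by 0.32 and Nfkb1 fell by 0.30. Of 7 TGFβ response genes, 6 were tested and all 6 rose, with Ltbp2 at 2.63 and Ccn2 at 2.06 on the log2 scale. Tgfbi, the gene not tested, had at most 3 counts in any library of either group.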

How the data were processed

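RNA of 4 untreated and 4 TGFβ1-treated SV-LEC samples was converted to stranded mRNA libraries and read in single-end mode (75 bases). The authors aligned these to GRCm38, and the deposited values are unnormalized gene counts for 55471 genes. Per the labels, bcl2fastq 2.20.0.422, STAR 2.7.3a and featureCounts 1.5.1 were used, and the annotation release and strand setting are not given in the sources used here. Groups came from the labels.

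Counts were filtered with filterByExpr, scaled by TMM and compared in edgeR 4.0.16 (R 4.3.3) with the likelihood ratio test, which the study's methods name, and with glmTreat against 0.5. FDRs were taken over all 13818 genes tested. Standard errors came from the fitted negative binomial model and 95% intervals are normal approximations. Ratios were tested by exact permutation. The pipeline was tested on simulated data. Positions, exon lengths and shared stretches came from GENCODE M21.

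The quasi-likelihood test, DESeq2 1.42.0, other scalings, filters, thresholds and prior counts, a replicate block and leaving out each library were alternatives. Named genes were the members, overlapping or similar genes, Jak1, Jak2, Tyk2, Stat3, and per list up to 2 significant genes with the largest change in each direction. Members and lists were chosen with earlier results of these data known, and the motifs were not part of the planned tests. Some genes that this rule names are not reported here.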

Additional observations from a re-analysis of the deposited data

Results flagged for a closer look

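In the 32 groups of 4 libraries examined, 10 members and 6 ratios in each treatment, 1 library lay further from the other 3 than chance leads to in about 1 in 20 groups. A single flagged group among 32 is no more than that rate gives by chance. The ratios also reuse the counts of the members. The log2 ratio of Il6ra to Il6st was -6.29 in untreated replicate 4, higher than in the other untreated libraries, where it lay close together. That library still lay below all 4 treated libraries in this ratio.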

How the results depend on the processing

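Under all 17 alternatives run for them, Il6, Il11, Lif, Il6ra, Il6st, Lifr, Osmr and Socs3 kept their direction and an FDR under the threshold used. The test against a log2 fold change of 1 in place of 0.5 left 2 members higher and 0 lower, and 1082 and 608 of all genes. No filter on low counts gave 6385 higher and 5755 lower genes. With total counts, Il11ra1 was at -0.012, 5 kinases and STATs and 2 other receptors were lower, and 2 inhibitors were higher. No sign was seen that the labels' replicate numbers pair the samples (correlations of same-numbered deviations from -0.31 to -0.041, 0 of 4 best with their own number). So few correlations cannot show that the samples were unpaired. With a replicate block, 5075 genes were higher and 5077 lower, with 6 and 2 members, and the ratios, at 0.92 (Il6/Il11), 0.52 (Il6/Lif), 1.05 (Il6ra/Il11ra1), -0.29 (Osmr/Lifr), 1.93 (Il6ra/Il6st) and 0.50 (Socs3/Il6st), could not pass (p = 0.125, exact sign-flip test, the smallest p that 4 pairs allow). Leaving out each library in turn kept 6 members higher and 2 lower, and gave ranges of -0.087 to 0.021 for Clcf1 and -0.0003 to 0.12 for Il11ra1, neither of them called. It gave 0.44 to 0.63 for Il6/Lif, whose adjusted p was 0.0571 (exact permutation) when any single treated library was left out, and -0.34 to -0.25 for Osmr/Lifr, with the same p when any single untreated library was left out. Past 0.5, 3 to 5 members were higher and 1 lower. Counts of 39 to 99 for Il11 limit its precision most.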
